A study of Mus musculus with 12 samples.

Results

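Cxcl9, Cxcl10 and Cxcl11 are the genes of the chemokines that bind the receptor CXCR3, though Cxcl11 gives no functional protein in C57BL/6 mice. Their RNA was followed here in mouse macrophages given an agonist of STING, an inhibitor of STING, or both. The 3 genes were taken by symbol from a table of 24062 gene entries, and all 3 passed the filter on low values that left 11440 genes for testing. RNA was sequenced from wild-type primary bone marrow derived macrophages of strain C57Bl/6 at passage 1, in 4 groups of 3 libraries. Cells received C-178 (a covalent inhibitor of STING) together with CMA (an agonist that acts on mouse STING), CMA alone, C-178 alone, or no stimulation, and the treatments lasted 2 h. The sources used here do not give doses, the age of the mice or whether libraries came from separate animals or cultures, so p-values measure only the spread between these libraries, which may be technical. Of the unstimulated libraries 2 share a column heading, and they are called a and b beside library 1.

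STING is an adaptor of the endoplasmic reticulum that relays the sensing of cytosolic DNA to the kinase TBK1, to the transcription factor IRF3 and to NF-κB. CXCL9, CXCL10 and CXCL11 are small secreted proteins, first described as products of interferon-treated cells, that draw CXCR3-bearing T cells and natural killer cells into inflamed tissue. CXCL9 is best known as a product of macrophages answering interferon gamma, while CXCL10 is also made directly downstream of type I interferon, IRF3 and NF-κB. In C57BL/6 mice Cxcl11 carries a frameshift and is known to give no functional protein, so its transcript is a readout of the locus and not of a chemokine.

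The 3 genes lie side by side on the minus strand of chromosome 5 (mm10, GENCODE M21 annotation). Cxcl9 (ENSMUSG00000029417.9) spans chr5:92321347-92328079 in 4 exon blocks, and Cxcl10 (ENSMUSG00000034855.13) spans chr5:92346638-92348889 in 1 exon block. Cxcl11 (ENSMUSG00000060183.6) spans chr5:92359544-92365485 in 4 exon blocks and is classed as a polymorphic pseudogene by GENCODE and as a transcribed pseudogene by RefSeq. The starts of Cxcl9 and Cxcl10 are 20.81 kb apart, and those of Cxcl10 and Cxcl11 16.596 kb. RefSeq starts Cxcl11 at chr5:92363296, so the second distance holds for the GENCODE span only. Art3, which encodes a protein of the ADP-ribosyltransferase family, runs on the opposite strand over the whole of Cxcl10 and Cxcl11 and shares 133 exonic bases with Cxcl10. The opposite-strand processed pseudogene Gm2673 shares 1582 exonic bases with Cxcl11. The library kit keeps strand, but the sources used here do not give the strand setting of the counting, so how reads were divided between these overlapping genes is uncertain.

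The bases just before the transcription starts are shown because binding sequences linked to IRF3, NF-κB and interferon signalling can be looked for there. Whether STING acts on these genes through them was not tested. Only Cxcl9 and Cxcl10 are shown, since the sources used here held no promoter sequence for Cxcl11. The stretches are the 250 bases up to the start from RefSeq (GRCm38.p6, minus strand, 5′ to 3′), chr5:92328080-92328329 for Cxcl9 and chr5:92348890-92349139 for Cxcl10. Capitals mark matches to an interferon-stimulated response element core, to NF-κB sequences or to an AP-1 sequence, in the order described after the lines.
Cxcl9 promoter: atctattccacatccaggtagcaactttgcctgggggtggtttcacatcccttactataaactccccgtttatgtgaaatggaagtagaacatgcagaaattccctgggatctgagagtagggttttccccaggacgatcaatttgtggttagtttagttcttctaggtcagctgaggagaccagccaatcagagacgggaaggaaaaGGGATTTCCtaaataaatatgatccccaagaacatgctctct
Cxcl10 promoter: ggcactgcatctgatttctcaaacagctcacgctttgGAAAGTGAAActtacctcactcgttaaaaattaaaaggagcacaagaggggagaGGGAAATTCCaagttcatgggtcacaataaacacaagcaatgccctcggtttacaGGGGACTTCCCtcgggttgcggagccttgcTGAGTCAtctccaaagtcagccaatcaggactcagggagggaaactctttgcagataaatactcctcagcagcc
In Cxcl10 the capitals are the response element core GAAAGTGAAA at positions -213 to -204 from the start, the NF-κB match GGGAAATTCC at -159 to -150, overlapping NF-κB matches at -104 to -94, and the AP-1 match TGAGTCA at -74 to -68. In Cxcl9 the capitals are a shorter NF-κB form, GGGATTTCC, at -42 to -34. The Cxcl9 stretch held no response element core and no match to the NF-κB consensus. An AP-1 match, TGACTCA, lay past the printed bases of Cxcl9, at +32 to +38, so both genes held AP-1 letters in the searched window. Neither stretch held the interferon gamma activated sequence TTCNNNGAA. The motifs were chosen with the sequences in view and searched on both strands from 250 bases before to 50 after the starts of 32851 RefSeq genes. Of those promoters 3.44% held the response element core (GAAA, any 2 bases, GAAA), 8.46% the NF-κB consensus, 1.68% the shorter form GGGANTTCC, 7.81% TGANTCA and 8.30% TTCNNNGAA. The longest run that both stretches share is cagCCAATcag, a CCAAT box with its flanks, at -68 to -58 in Cxcl9 and -57 to -47 in Cxcl10, and 0.414% of promoters held it on the same strand. A match describes letters in these windows and is not evidence of binding.

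Values are normalised counts from the deposited table, and each column could be turned back into whole reads, between 7.05 and 36.44 M per library. The deepest libraries were number 1 of C-178 plus CMA and number 1 of C-178. Among the C-178 plus CMA libraries, number 2 stood apart for Cxcl9. Number 3 stood apart for the chemokine gene Ccl5 (34420 normalised counts against 2183 and 2729 in numbers 1 and 2), a gene chosen after its values were seen. The 8 macrophage markers examined, Lyz2 and Csf1r among them, were all above 100 normalised counts in every group. The summed T and natural killer cell markers, whose cells carry CXCR3, reached 9.28 to 18.3 normalised counts per library with C-178 plus CMA, 5.92 to 14.7 with CMA, 19.0 to 34.6 with C-178 and 19.7 to 28.5 without stimulation, and 0 of 8 averaged above 10 in any group. Of those markers Gzma was at 0 with C-178 plus CMA, with C-178 and without stimulation, and Prf1 and Nkg7 were at 0 with CMA. The RNA extraction label speaks of MEF, embryonic fibroblasts. The 8 fibroblast markers summed to 380.5 to 821.9 normalised counts with C-178 plus CMA, 614.8 to 1125 with CMA, 638.4 to 807.5 with C-178 and 550.4 to 566.4 without stimulation, against 336587 or more for the macrophage markers in each library. Between 5 and 7 of the 8 averaged above 10 per group, and Lum was at 0 in every group but C-178. The 4 B cell markers, none above 10 on average in any group, summed to 1.43 to 4.31 with C-178 plus CMA, 1.65 to 5.92 with CMA, 12.05 to 14.5 with C-178 and 11.4 to 19.0 without stimulation. The 5 endothelial markers, led by Pecam1, summed to 499.6 to 1147 with C-178 plus CMA, 1193 to 1202 with CMA, 838.4 to 1048 with C-178 and 854.5 to 1024 without stimulation. The part of these cells in the results was not tested. In bulk RNA, fewer cells of a type and less RNA per cell cannot be told apart.

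Cxcl10 was the most abundant of the 3 transcripts in every library. It had 34067, 31751 and 26609 normalised counts in the C-178 plus CMA libraries, 71631, 92359 and 83458 in the CMA libraries, 86.4, 75.3 and 58.1 in the C-178 libraries, and 123.9, 66.3 and 100.6 in the unstimulated libraries 1, a and b. All 6 libraries with CMA thus lay far above all 6 without it, and the C-178 plus CMA libraries lay below every CMA library. The means were 30809 ± 3817 with C-178 plus CMA, 82483 ± 10399 with CMA, 73.3 ± 14.3 with C-178 and 96.9 ± 29.0 without stimulation (SD, n = 3 each).

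Cxcl9 had 498.7, 1669 and 354.5 normalised counts in the C-178 plus CMA libraries, 18728, 32455 and 23878 in the CMA libraries, 25.5, 40.7 and 23.2 in the C-178 libraries, and 27.4, 23.9 and 20.9 in the unstimulated libraries. The highest C-178 plus CMA library was over 3 times each of the other two, yet it stayed below every CMA library and above every library without CMA. The means were 840.8 ± 721.1 with C-178 plus CMA, 25021 ± 6935 with CMA, 29.8 ± 9.47 with C-178 and 24.0 ± 3.25 without stimulation (SD, n = 3 each). Relative to the mean, the spread of Cxcl9 was 85.8% with C-178 plus CMA and 27.7% with CMA, where Cxcl10 had 12.4% and 12.6%.

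Cxcl11 was the scarcest. It had 31.2, 31.4 and 64.2 normalised counts in the C-178 plus CMA libraries, 398.9, 475.7 and 429.5 in the CMA libraries, 0.359, 1.51 and 0 in the C-178 libraries, and 0, 0 and 0.633 in the unstimulated libraries. Without CMA it was barely detected, with 2 reads in all in the C-178 libraries and 1 read in the unstimulated libraries, against 158 reads with C-178 plus CMA and 717 with CMA. A count of 0 over a group allows up to 0.724 normalised counts with C-178 and 0.656 without stimulation. The means were 42.3 ± 19.0 with C-178 plus CMA, 434.7 ± 38.7 with CMA, 0.621 ± 0.786 with C-178 and 0.211 ± 0.365 without stimulation (SD, n = 3 each). The C-178 and unstimulated libraries overlapped for each of the 3 genes, so those neighbouring levels did not differ beyond their spread, while in all other neighbouring pairs of groups the libraries did not overlap.

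**Figure D1:**
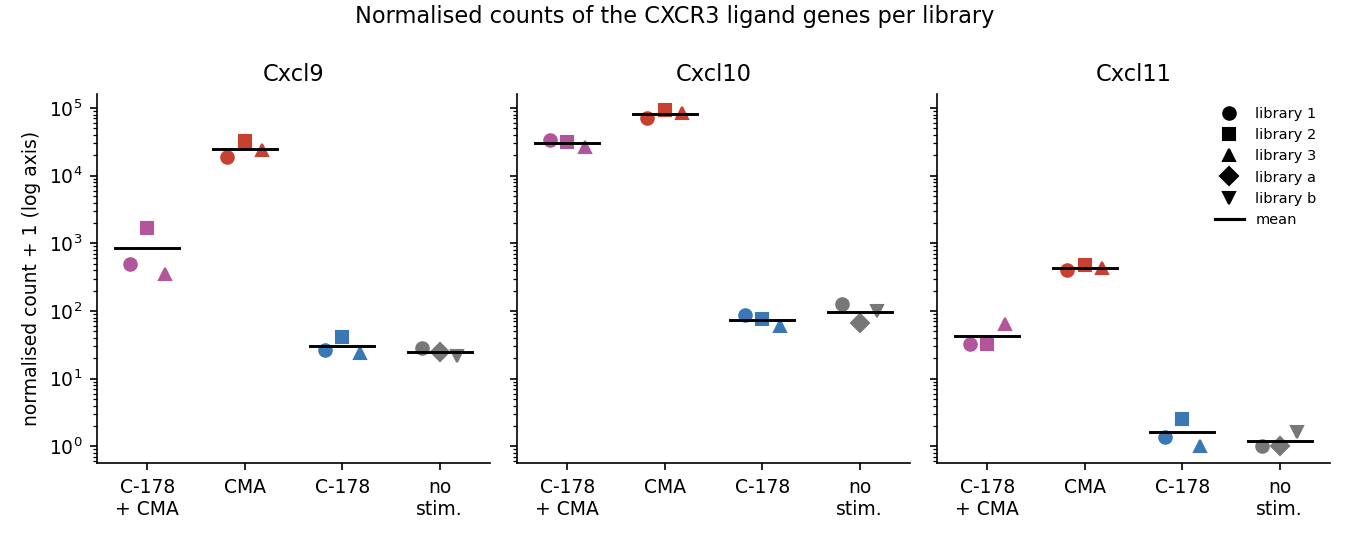
Normalised counts (plus 1, log axis) of Cxcl9, Cxcl10 and Cxcl11 in each of the 12 libraries, by group, with black bars at the group means. For each gene the 3 CMA libraries are highest, the 3 C-178 plus CMA libraries come next, and the 6 libraries without CMA are lowest, and Cxcl9 in C-178 plus CMA library 2 (1669) stands above libraries 1 and 3.

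Levels per kilobase used the union of all annotated exons, which for Cxcl10 is its whole span of 2252 bases in 1 block. Cxcl9 has 3016 exonic bases in a span of 6733, and Cxcl11 has 3794 in a span of 5942. A union longer than the spliced transcript lowers the level per kb. Ranks, shares and percents of Cxcl10 depend on these lengths. On this scale Cxcl10 averaged 13681 normalised counts per kb with C-178 plus CMA and 36626 with CMA. Cxcl10 thereby ranked 27 with C-178 plus CMA and 12 with CMA among 22724 genes with a length, next to 6361 without stimulation. Cxcl9 averaged 278.8 per kb with C-178 plus CMA and 8296 with CMA, and ranked 1873 and 48 in these groups, next to 9451 without stimulation. Cxcl11 averaged 11.1 per kb with C-178 plus CMA and 114.6 with CMA, and ranked 8995 and 3764. After 2 h with CMA alone, Cxcl10 and Cxcl9 were therefore both among the 50 highest levels per kb, and with C-178 present Cxcl10 alone of the 3 was.

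CMA alone raised all 3 genes. On the log2(normalised count + 1) scale Cxcl9 rose by 9.94 ± 0.43 (SE; 1041-fold on means) and Cxcl10 by 9.76 ± 0.21 (850.9-fold), with limma adjusted p of 7.99e-10 and 2.95e-12. Cxcl11 rose by 8.53 ± 0.41 (limma adjusted p = 2.00e-09), a fitted value that depends on the pseudocount because 1 unstimulated read stands behind it. Its ratio of reads at equal depth was 1976, with a 95% counting interval of 353.6 to 78168. All 3 were called higher and none of their libraries overlapped, next to 19.4% of tested genes called higher and 31.0% higher without overlap. By size of log2 change in this fit Cxcl9, Cxcl10 and Cxcl11 stood 2nd, 3rd and 5th among the 11440 genes tested. Cxcl9 and Cxcl10 changed order at a pseudocount of 8 (9.58 and 9.65) and with quantile normalisation (9.54 and 9.60). The place of Cxcl11 depends on the setting, since its change was 5.75 at a pseudocount of 8 and 10.39 and 10.84 with edgeR and DESeq2, above those of Cxcl9 (10.01 and 10.02) and Cxcl10 (9.73 and 9.74) in both tools.

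C-178 given together with CMA left the 3 genes at very different fractions of their CMA levels. Cxcl9 fell by 5.19 ± 0.43 on the log2 scale against CMA alone (SE; limma adjusted p = 7.77e-06), leaving 3.36% of the CMA mean. Cxcl11 fell by 3.41 ± 0.41 (adjusted p = 0.000141), leaving 9.72%, and Cxcl10 fell by 1.42 ± 0.21 (adjusted p = 0.000581), leaving 37.4%. All 3 were called lower without overlap, where 13.5% of tested genes were called lower and 18.5% were lower without overlap. The Cxcl9 fraction leans on library 2 of C-178 plus CMA, and without it the mean was 426.6, or 1.70% of CMA. Leaving out any other of the 6 libraries gave 2.99% to 4.33% for Cxcl9. The fraction ran from 35.0% to 39.9% for Cxcl10 and from 7.20% to 10.995% for Cxcl11 when any of the 6 was left out.

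A total of 1259 genes rose 2-fold or more with CMA, and their log2 changes of C-178 plus CMA against CMA give a setting for these values. These genes were picked on the same CMA libraries that C-178 plus CMA is set against here, so a median below 0 is partly fixed by the choice. The median was -0.93, with 10th and 90th percentiles of -1.98 and -0.18. Cxcl9 was the second lowest of the 1259 and Cxcl11 the 21st lowest, while 23.6% of them lay below Cxcl10. Cxcl10 was thus well inside the range of the raised genes and its neighbours were in the lower tail.

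**Figure D2:**
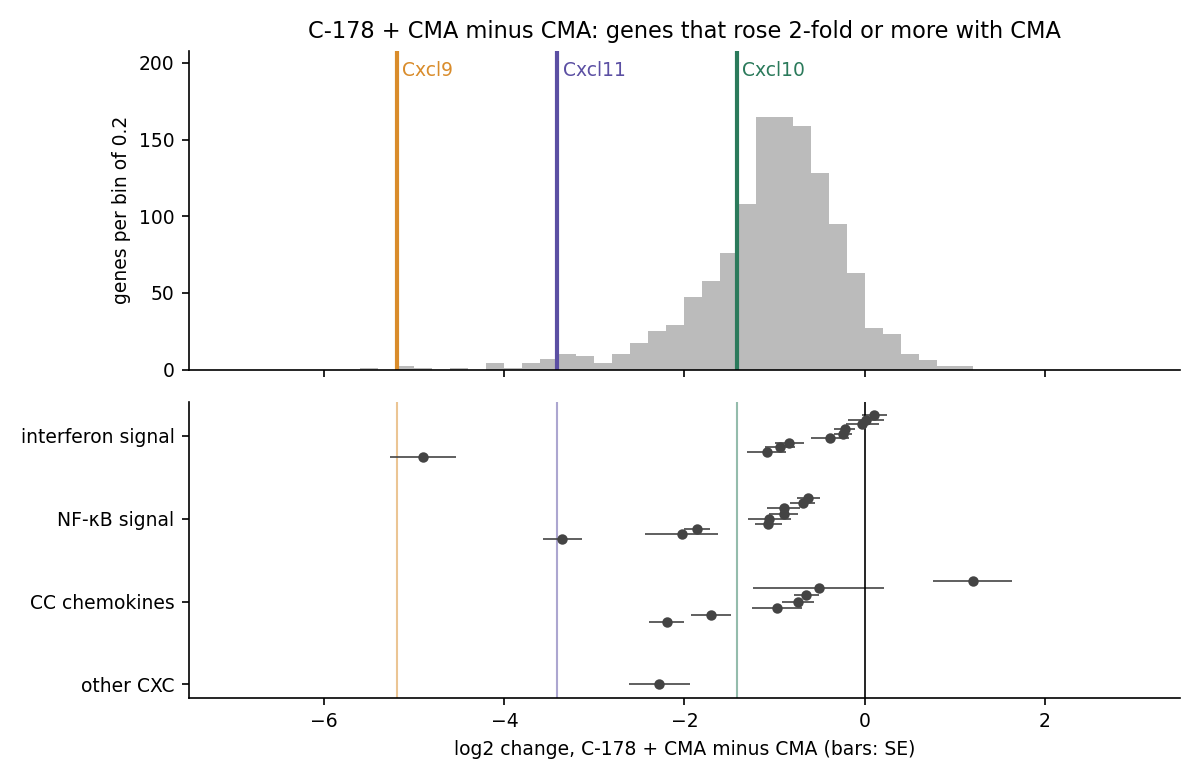
Above, log2 change of C-178 plus CMA minus CMA for the 1259 genes that rose 2-fold or more with CMA, with lines at the 3 CXCR3 ligand genes. Below, list members called higher with CMA, without the 2-fold cut (points, bars are SE). The lists are interferon signal, NF-κB signal, CC chemokines and other CXC chemokines. Cxcl9 (-5.19) and Cxcl11 (-3.41) lie in the left tail with Ifnb1 (-4.90) and Tnfaip3 (-3.35) near them. Cxcl10 (-1.42) lies in the body of the histogram.

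CMA still raised the 3 genes in the presence of C-178. Against C-178 alone, Cxcl10 rose by 8.71 ± 0.21 on the log2 scale (SE; 420.5-fold; limma adjusted p = 1.36e-11), Cxcl9 by 4.48 ± 0.43 (28.2-fold; adjusted p = 4.03e-06) and Cxcl11 by 4.76 ± 0.41 (adjusted p = 1.30e-06; ratio of reads 74.8, 95% counting interval 20.4 to 623.4). The background was 13.5% of tested genes called higher and 16.8% higher without overlap, and the 3 genes were all both. Cxcl10 had the largest log2 change of the 11440 genes in this fit, and Cxcl9 stood 40th. No place is given to Cxcl11, whose 2 reads with C-178 let its log2 change run from 2.48 (pseudocount 8) to 6.33 (DESeq2), below and above Cxcl9 at those settings (4.19 and 4.83). The Cxcl9 change was 3.82 without library 2 of C-178 plus CMA. Against no stimulation the changes of C-178 plus CMA were 8.34 ± 0.21 for Cxcl10 (317.8-fold; adjusted p = 2.43e-11), 4.74 ± 0.43 for Cxcl9 (35.0-fold; adjusted p = 2.38e-06) and 5.12 ± 0.41 for Cxcl11 (adjusted p = 7.26e-07; ratio of reads 165.2, interval 29.2 to 6567). Here 11.1% of tested genes were called higher and 16.9% were higher without overlap. Cxcl10 was again first of the 11440 genes in this fit, and Cxcl9 stood 30th. The Cxcl9 change was 4.08 without library 2 of C-178 plus CMA. Cxcl11, with 1 unstimulated read, ran from 2.55 (pseudocount 8) to 7.42 (DESeq2), where Cxcl9 had 4.40 and 5.13. Both comparisons share the C-178 plus CMA libraries, so they are not independent of each other.

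C-178 alone gave no call for any of the 3 genes. The log2 differences from no stimulation were 0.26 ± 0.43 for Cxcl9, -0.37 ± 0.21 for Cxcl10 and 0.35 ± 0.41 for Cxcl11 (SE; limma adjusted p = 1 for each, unadjusted p = 0.548, 0.0979 and 0.399). In this comparison 0.0962% of tested genes, 11 in all, were called in either direction. With 2 reads and 1 read behind it, a change of Cxcl11 between these groups was not detectable at this depth.

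The difference between the CMA response with and without C-178, tested as an interaction in the same fit, was -5.46 ± 0.61 for Cxcl9, -3.77 ± 0.57 for Cxcl11 and -1.05 ± 0.30 for Cxcl10 (log2, SE; limma adjusted p = 0.000391, 0.00256 and 0.0411). Of tested genes, 5.99% were called lower in this test. The Cxcl10 call is the least firm, since leaving out single libraries gave adjusted p of 0.0220 to 0.109 and lost the call in 8 of 12 cases. Those cases were libraries 1 and 3 of C-178 plus CMA, 2 and 3 of CMA, 1 and 2 of C-178, and a and b of no stimulation. The Cxcl11 call was lost with edgeR on the recovered reads (adjusted p = 0.113).

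**Figure D3:**
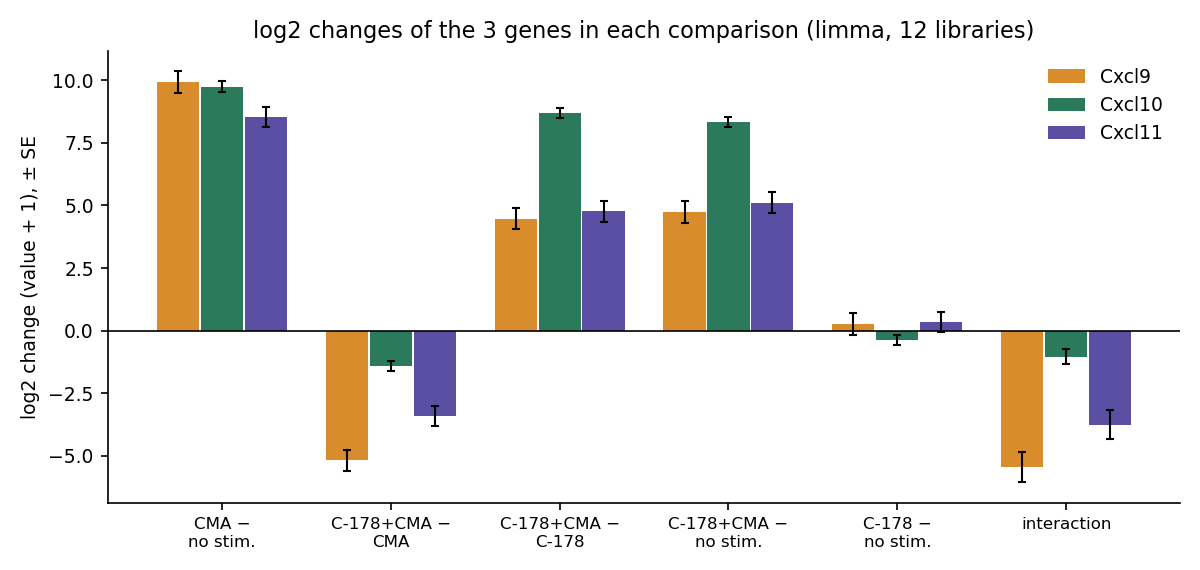
log2 changes of Cxcl9, Cxcl10 and Cxcl11 in each comparison (bars) with the SE of the limma fit over 12 libraries (error bars). The Cxcl9 and Cxcl10 bars are nearly level for CMA minus no stimulation (9.94 and 9.76, beside 8.53 for Cxcl11, which depends on the pseudocount), and the 3 bars are unequal for C-178 plus CMA minus CMA (-5.19, -1.42 and -3.41).

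Set against each other within a library, the 3 transcripts stood in a different proportion with C-178 plus CMA than with CMA alone. Per kilobase, Cxcl9 stood at 1.09%, 3.93% and 0.995% of Cxcl10 in C-178 plus CMA libraries 1 to 3, and at 19.5%, 26.2% and 21.4% in the CMA libraries. It was 22.0%, 40.3% and 29.9% of Cxcl10 in the C-178 libraries and 16.5%, 26.9% and 15.5% in unstimulated libraries 1, a and b. The CMA libraries thus lay within the range of the libraries without CMA although both levels were far higher, and the C-178 plus CMA libraries lay below all others. Cxcl11 stood at 0.0543%, 0.0587% and 0.143% of Cxcl10 in the C-178 plus CMA libraries and at 0.331%, 0.306% and 0.305% in the CMA libraries, again without overlap. It stood at 0.246%, 1.19% and 0% in the C-178 libraries and at 0%, 0% and 0.373% in unstimulated libraries 1, a and b. The libraries without CMA held at most 1 Cxcl11 read each, and the C-178 plus CMA values lay within their range. Of the summed level per kb of the 3 genes, Cxcl10 made up 96.2% to 98.9% with C-178 plus CMA and 79.0% to 83.4% with CMA.

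Between C-178 plus CMA and CMA, the log2 ratio of Cxcl9 to Cxcl10 averaged -5.52 ± 1.10 and -1.75 ± 0.22 (SD, n = 3 each), a difference of -3.77. For Cxcl11 to Cxcl10 it averaged -9.55 ± 0.76 and -7.56 ± 0.07, a difference of -1.99. An exact two-sided permutation test gave p = 0.1 for each of these ratios (0.15 after adjustment over 3 ratios), which is the smallest p that 3 against 3 libraries allow. The ratio of Cxcl9 to Cxcl11 averaged 4.03 ± 1.62 with C-178 plus CMA and 5.81 ± 0.27 with CMA, and these libraries overlapped (exact permutation p = 0.2, adjusted 0.2). Each ratio difference was larger than the SD of either group, and the test cannot pass 0.05 in this design.

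**Figure D4:**
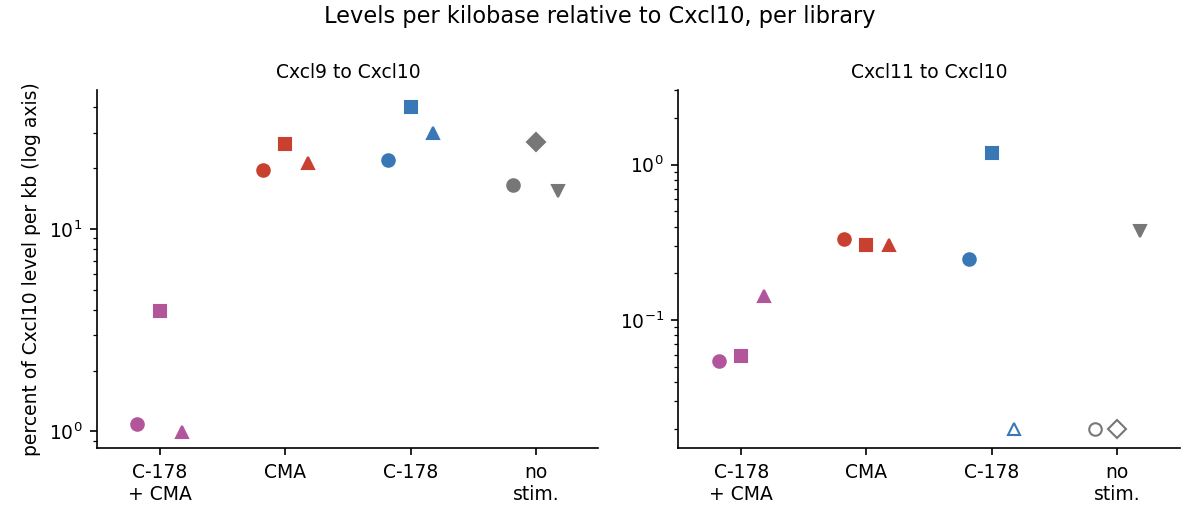
Level per kb of Cxcl9 (left) and Cxcl11 (right) as a percent of the Cxcl10 level per kb in each of the 12 libraries (log axes); open symbols at the bottom are libraries without a Cxcl11 read. The 3 C-178 plus CMA libraries (0.995% to 3.93% for Cxcl9) lie below the 3 CMA libraries (19.5% to 26.2%) in both panels.

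The interferon signal genes, a list of ligands, receptors, kinases and transcription factors of interferon signalling, moved in a mixed way. Of 16 tested members, 10 rose and 3 fell with CMA (median log2 change 0.82, against -0.01 over all tested genes). Of all tested genes 19.4% were called higher and 17.9% lower with CMA. Ifnb1, which encodes interferon beta, had 1424, 2211 and 1630 normalised counts in the CMA libraries and no read without stimulation (limma adjusted p = 1.1e-10). The interferon regulatory factor genes Irf1, Irf7 and Irf9 rose by 3.82 ± 0.16, 2.65 ± 0.18 and 1.21 ± 0.10. With C-178 plus CMA against CMA, 5 members fell and 1 rose (median -0.23, against 0.00 over all tested genes). Of all tested genes 13.5% were called lower and 10.6% higher in this comparison. Ifnb1 fell to 54.0, 39.98 and 84.0 normalised counts in the C-178 plus CMA libraries, leaving 3.38% of its CMA mean (log2 change -4.90 ± 0.36, adjusted p = 3.73e-06). Irf1 and Irf8 fell by 0.83 ± 0.16 and 0.94 ± 0.16, and Ifngr2, a subunit of the interferon gamma receptor, rose by 1.00 ± 0.19. Irf7 stood at 101.5% of its CMA mean, with no call. Ifng, which encodes interferon gamma, was too low to test, with 14 reads in all with C-178 plus CMA, 22 with CMA, 1 with C-178 and 0 without stimulation. Those reads are not at equal depth. The C-178 plus CMA libraries held 7.77 to 36.44 M reads and the CMA libraries 7.13 to 7.83 M.

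The NF-κB signal genes that were called all moved one way in each comparison. With CMA 9 of 13 tested members rose and none fell (median 0.77), where 19.4% of all tested genes were called higher. With C-178 plus CMA against CMA 10 fell and none rose (median -0.90), where 13.5% of all were called lower. Tnfaip3, which encodes the feedback inhibitor A20, rose by 4.16 ± 0.22 with CMA and fell by 3.35 ± 0.22 when C-178 was added (limma adjusted p = 4.70e-09 and 1.03e-06), leaving 9.99% of its CMA mean, close to the 9.72% of Cxcl11. Nfkbia, which encodes the inhibitor IκBα, rose by 2.51 ± 0.14 with CMA and fell to 27.8% of its CMA mean with C-178 plus CMA. The subunit genes Nfkb1 and Nfkb2 rose by 1.26 ± 0.17 and 1.07 ± 0.15 with CMA. Against no stimulation, C-178 plus CMA left 2 of the 13 higher (Tnfaip3 by 0.81 ± 0.22 and Nfkbia by 0.65 ± 0.14) and none lower. That share is near the 11.1% of all tested genes called higher in this comparison. There 9 of the 16 interferon signal genes were higher and 4 lower, where 11.1% of tested genes were called higher and 10.5% lower.

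Of the other chemokine genes, those of the CC family, named for adjacent cysteines, held most of the calls. Of 12 tested CC genes 7 rose and 1 fell with CMA (median 2.65), where 19.4% of all tested genes were called higher and 17.9% lower. With C-178 plus CMA against CMA 6 fell and none rose (median -0.58), where 13.5% of all were called lower and 10.6% higher. The monocyte attractant genes Ccl2, Ccl7 and Ccl12 rose by 4.56 ± 0.14, 4.55 ± 0.17 and 6.67 ± 0.28 with CMA, and Ccl4, which encodes another CC chemokine, by 5.85 ± 0.22. Ccl3 and Ccl4 fell to 22.0% and 30.5% of their CMA means with C-178 plus CMA, and Ccl2 to 64.0%. Of 6 tested CXC genes outside the CXCR3 ligands, Cxcl2, which encodes a neutrophil attractant, was the only one called, higher with CMA and lower with C-178 plus CMA against CMA, a share near those of all tested genes (19.4% and 13.5%). Cxcl2 had 7.29, 12.8 and 7.64 normalised counts with C-178 plus CMA against 34.6, 67.1 and 45.9 with CMA, and it rose by 1.90 ± 0.34 with CMA alone over no stimulation. The C-178 plus CMA libraries overlapped for Cxcl2 with the C-178 libraries (16.1, 9.03 and 14.5), where Cxcl9, Cxcl10 and Cxcl11 all remained above theirs.

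The receptor gene Cxcr3 itself was low. It averaged 83.8 ± 19.1 normalised counts with C-178 plus CMA, 66.6 ± 8.63 with CMA, 82.7 ± 16.4 with C-178 and 115.2 ± 18.5 without stimulation (SD, n = 3 each). It fell by 0.78 ± 0.22 with CMA (limma adjusted p = 0.0116) and was not called in C-178 plus CMA against CMA. Dpp4, which encodes the peptidase that trims CXCR3 ligands, averaged 11.3 normalised counts with C-178 plus CMA, 23.5 with CMA, 23.0 with C-178 and 18.6 without stimulation, and was not called in any comparison. Ackr3, the gene of a scavenging receptor for CXCL11, and Ackr1, that of a chemokine-binding receptor of red cells and vessels, were too low to test, with 4 reads or fewer per group for Ackr3.

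Around the 3 genes on chromosome 5 the changes of the tested genes were far smaller. Of 15 listed neighbours within about 0.6 Mb, 10 were tested, of which 6 rose and 1 fell with CMA (median 0.43), where 19.4% of all tested genes were called higher and 17.9% lower. The nearest tested neighbours beyond Cxcl9 were Sdad1 and Naaa, which encodes an acid amidase, and they rose by 0.98 ± 0.16 and 1.38 ± 0.14. Rchy1, which encodes a ubiquitin ligase, fell by 1.04 ± 0.19. On the side of Cxcl11 the nearest tested gene, Nup54, rose by 0.48 ± 0.16, and Scarb2 changed by 0.11 ± 0.16 with no call. With C-178 plus CMA against CMA, Naaa fell by 0.87 ± 0.14, Thap6 by 0.58 ± 0.19, and Rchy1 rose by 0.62 ± 0.19. Ppef2, too low to test, had 3 reads with C-178 plus CMA, 11 with CMA and 0 in each of the other groups. Art3, which overlaps Cxcl10 and Cxcl11 on the other strand, had 2.32, 2.86 and 0 normalised counts with C-178 plus CMA, 9.89, 7.89 and 12.8 with CMA, 0 in each C-178 library, and 1.52, 1.19 and 1.90 without stimulation. Those are 9, 17, 0 and 7 reads per group, and whether they come from Art3 or from the genes it overlaps was not tested.

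**Figure D5:**
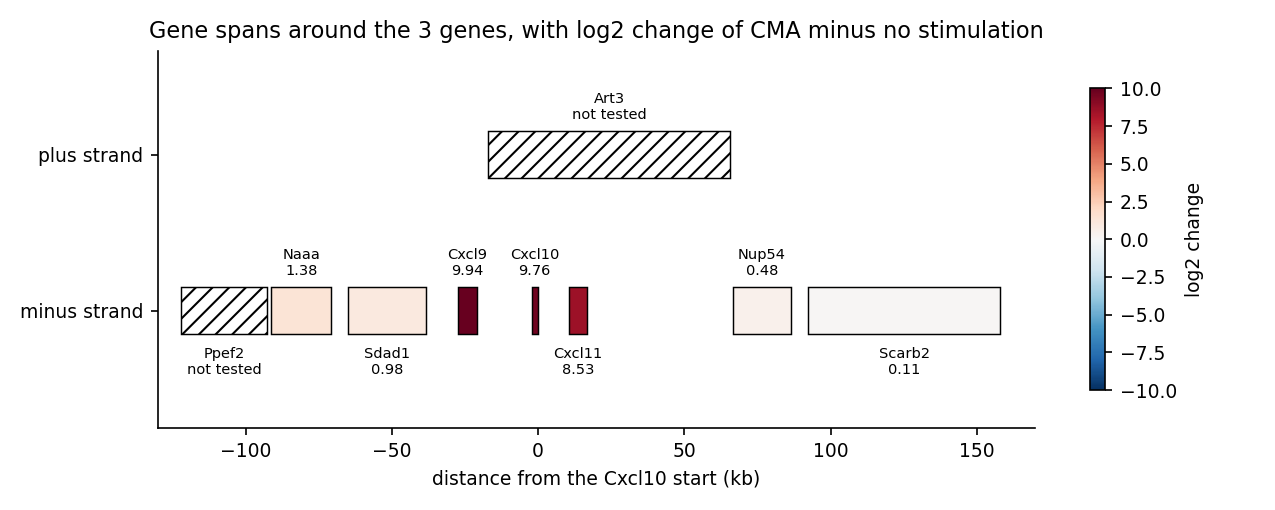
Gene spans around the 3 genes by distance from the Cxcl10 start (kb) and strand, coloured by log2 change of CMA minus no stimulation, with hatched genes not tested. The 3 CXCR3 ligand genes (9.94, 9.76 and 8.53) stand within 45 kb of each other between tested neighbours that changed by 1.38 or less, and Art3, which was not tested, crosses Cxcl10 and Cxcl11 on the plus strand.

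Profiles over the 12 libraries were also compared directly, each centred on its own mean on the log2 scale, by the root mean square difference. The nearest tested genes to Cxcl9 were Ifnb1 (0.89), Heatr9 (0.89), Tnfsf15 (0.97), which encodes a TNF family ligand, Irg1 (0.99), the gene of the itaconate-making enzyme, and Cxcl11 (1.00). Nearest to Cxcl11 were Tnfsf15 (0.59), Irg1 (0.63), Ifi205 (0.76), Heatr9 (0.77) and Gbp5 (0.85), which encodes a guanylate-binding protein, with Cxcl9 in place 10. For Cxcl10 the nearest were Cd69 (0.51), Serpina3f (0.85), Socs1 (1.09), Gbp5 (1.16) and Serpina3g (1.179). Cd69 is the gene of an early activation antigen, and Socs1 encodes an inhibitor of cytokine signalling. Gbp5 was also among the 5 nearest to Cxcl11. Cxcl11 and Cxcl9 came in places 12 and 24 for Cxcl10, and Cxcl10 came in place 44 for Cxcl9 and 74 for Cxcl11. These distances are a description over 4 groups and carry no test. Without CMA, Cxcl11, Ifnb1 and Heatr9 lay near the floor, so distances that involve them may depend on the pseudocount. No other pseudocount was tried for them.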

How the data were processed

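RNA-seq signal for 24062 entries (24060 names) in 12 libraries was read from the table of normalised counts deposited by the authors; the 12 columns of Cook's distances in it were not used. Per the submitters' processing notes, Bowtie2 2.2.1, limma 3.18.13 and mm10 were involved, in roles not stated. The sources used here give no counting tool or strand setting. Dividing each column by its smallest step gave whole reads for 100% of values (tolerance 0.01).

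Log2(value + 1) was fitted with limma 3.58.1 (R 4.3.3, lmFit and eBayes with trend) over all 12 libraries, for genes above 10 in at least 3 libraries. P-values were adjusted by Benjamini and Hochberg over the 11440 genes tested in each comparison, and calls were made at 0.05. The steps were tested on simulated data. On the recovered reads, edgeR 4.0.16 called 4188 genes for CMA against no stimulation, 2724 for C-178 plus CMA against CMA, 3117 against C-178, 2734 against no stimulation, 13 for C-178 and 1185 for the interaction. DESeq2 1.42.0 called 4417, 2988, 3288, 2911, 39 and 1742 in the same order, and limma 4271, 2760, 2988, 2464, 11 and 1137.

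Counting intervals are exact, at 95%, and with the floor of 3 reads per group they cover counting error only. Exonic lengths and coordinates came from GENCODE M21 and promoters from RefSeq. Genes were named by rule, the 3 ligand genes, up to 4 called members of each list with the smallest adjusted p, members of the neighbour and receptor lists, and the 5 nearest profiles; some items are not reported here. The members and lists were chosen with earlier results of these data known. Same-numbered libraries of C-178 plus CMA and C-178 deviated together over tested genes (r = 0.45, 0.43 and 0.26). Those of C-178 plus CMA and CMA did not (r = -0.14, 0.18 and -0.16). The main fit used no pairing, and the library number entered only as a block in an alternative fit. Libraries number 1 of C-178 plus CMA and of C-178 were also the deepest, and the part of depth in these r values was not tested. Python 3.11.15, pandas 2.3.3, numpy 2.4.6, scipy 1.17.1 and matplotlib 3.10.9 served for the rest.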

Additional observations from a re-analysis of the deposited data

Results flagged for a closer look

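The log2 response of each of the 3 genes to CMA differed with C-178 from that without it, by a test of the difference itself (the interaction in the limma fit over 12 libraries). The difference in log2 response, with C-178 minus without, was -5.46 for Cxcl9 (adjusted p = 0.000391), -3.77 for Cxcl11 (adjusted p = 0.00256) and -1.05 for Cxcl10 (adjusted p = 0.0411). For Cxcl9 and Cxcl11 all 12 fits that left out a single library kept the call, and for Cxcl10 it was kept in 4 of the 12. The Cxcl11 call was lost with edgeR (adjusted p = 0.113), and the Cxcl10 call with no filter (0.0637) and without the trend (0.0713). In each gene all 3 C-178 plus CMA libraries lay below all 3 CMA libraries, and the C-178 and unstimulated libraries overlapped.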

How the results depend on the processing

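In the comparisons of CMA or of C-178 plus CMA with another group, the 12 results for Cxcl9, Cxcl10 and Cxcl11 kept direction and call in 198 of 198 alternative values (another pseudocount, filter, scaling or tool, only the groups compared, and single libraries left out). The Cxcl10 interaction missed the threshold with no filter (-1.05, adjusted p = 0.0637) and without trend (-1.05, adjusted p = 0.0713), and ranged from -1.25 to -0.80 with single libraries left out. The Cxcl11 interaction was not called by edgeR (-4.30, adjusted p = 0.113). For C-178 against no stimulation, Cxcl11 turned to -0.0147 without C-178 library 2 (range -0.0147 to 0.65), where 2 reads and 1 read were compared. The fitted rise of Cxcl11 with CMA ran from 5.75 (pseudocount 8) to 10.84 (DESeq2). Counts of called genes, on which the background shares rest, were 854 for C-178 plus CMA against CMA with only these groups fitted and 1344 to 4711 with a library left out (main 2760), the highest without C-178 plus CMA library 2 and the lowest without CMA library 2, with 1437 without CMA library 3. Against C-178 they were 1338 and 1941 to 4181 (lowest without C-178 library 2), and against no stimulation 1531 and 1651 to 3342. For C-178 against no stimulation they were 18 with quantile normalisation, 31 with only these groups, 39 with DESeq2 and 4 to 13 with a library left out. For the interaction they were 1742 with DESeq2 and 343 to 3699 with a library left out (highest without C-178 plus CMA library 2). Quantile normalisation turned 1548 higher and 1440 lower genes of C-178 plus CMA against C-178 into 1351 and 1892, those of CMA against no stimulation (2224 and 2047) into 1953 and 2667, of C-178 plus CMA against CMA (1217 and 1543) into 1405 and 1303, and against no stimulation (1265 and 1199) into 1168 and 1615. The ratio differences ranged from -4.41 to -3.42 (Cxcl9 to Cxcl10), -2.43 to -1.74 (Cxcl11 to Cxcl10) and -2.61 to -0.99 (Cxcl9 to Cxcl11). With the library number as a replicate block over the 9 treated libraries, 2380 genes were called against CMA and 2601 against C-178, and no call of the 3 genes changed; unstimulated columns share a number and could not be blocked. The causes of these shifts were not tested. Depth limits Cxcl11 without CMA, Ifng and Art3.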
